A study of Homo sapiens with 63 samples.

Results

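The mRNAs described here encode human ZNF zinc finger proteins. A gene was included when its symbol is ZNF followed by exactly 3 digits and its mean signal over the log phase fractions was 10 or more, so the members were chosen by symbol and by measured log phase values. The table of 11074 genes held 319 such symbols, and 317 met the signal minimum. ZNF836 (10.5), ZNF713 (12.4) and ZNF619 (13.1) lay just inside it, and ZNF844 (7.87) and ZNF556 (6.84) were the 2 left outside. All 317 had an entry in the human RefSeq gene table (GRCh38.p14), where ZNF720 is now named KRABD5.

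HEK293 cells, an established human embryonic kidney line, were starved of serum for 2 h, starved of amino acids for 1 h in Earle's balanced salt solution with MEM vitamins and 10% fetal bovine serum, or kept growing in log phase. The amino acid starved cells thus still had serum. All cells received cycloheximide, which holds ribosomes on mRNA, for 10 min before lysis. Each lysate was run on 1 gradient that was collected in numbered fractions, and polyadenylated RNA of fractions 3 to 22 was sequenced, giving 20 fractions for each of 3 gradients. Which end of a gradient is the heavy one is not given, so positions are described only as lower or higher fraction numbers. As each condition had 1 gradient, nothing here was checked by a replicate, and p-values are not given.

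C2H2 zinc finger proteins form the largest family of transcription factors in the human genome, and each finger is a short fold held by a zinc ion that usually reads DNA. Many members also carry a KRAB domain, which recruits the corepressor TRIM28 and through it a histone methyltransferase, and many of these silence transposable elements. The genes lie largely in tandem clusters on chromosome 19. A smaller number of ZNF symbols belong to proteins with other work, such as ribosome assembly (ZNF622, ZNF593) or spindle function (ZNF207). Closely related copies share sequence, so how the quantification divided reads between paralogs is uncertain for single genes.

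The deposited values are called signal here, because each fraction carries a scale set by the authors that the sources used here do not explain. The position of an mRNA is its mean fraction number weighted by signal, and a shift is the difference of 2 positions minus the median difference of all 10889 tested genes. A gene was tested if its mean signal reached 5 in every gradient and if 15 or more of the 20 fractions were above 0 there. This held for 308 of the 317 members, and the 9 others (ZNF235, ZNF284, ZNF417, ZNF425, ZNF600, ZNF619, ZNF654, ZNF792 and ZNF836) had a mean under 5 in a starved gradient. A shift met the size rule when it reached 1 fraction and its sign was kept, with a size of 0.5 or more, by odd fractions alone and by even fractions alone. Because the scale is unexplained, shifts were also computed with every fraction given the same total (equal totals), and these are given beside most of the values named below.

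Estimated depth was between 2499190 reads in log phase fraction 6 and 13143800 in log phase fraction 5, with a median of 8203400 over the 60 fractions. A member had a median of 542 estimated reads over the serum starved gradient, 565 over the amino acid starved gradient and 749 over the log phase gradient, and the lowest had 68.5, 77.4 and 89.6. Counting error alone then gave a median standard error of 0.22 fractions for a serum shift and 0.21 for an amino acid shift, with a highest value of 0.59 and 0.53. The HEK293 markers NEFM, NEFL, INA, VIM, KRT8 and KRT18 were all in the table. PAX2, also on the HEK293 list, was not in the table. Neither were the markers of blood (PTPRC, CD3E), liver (ALB), fibroblasts (COL1A1, COL1A2) and endothelium (PECAM1).

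ZNF mRNAs lay at lower fraction numbers than the median gene in all 3 gradients. Their median position was 14.9 in serum starved cells, 14.5 in amino acid starved cells and 16.6 in log phase cells, against 15.6, 15.1 and 16.9 for all tested genes in the same gradients. The differences of the medians were -0.74, -0.59 and -0.38 fractions. Under equal totals they were -0.72, -0.52 and -1.01, so the direction was the same under both scalings. With positions weighted by log2(signal + 1) the log phase difference was 0.07, which turned its sign. The rule used the members' log phase signal but no position. In the serum starved gradient 237 of the 308 members lay below the median gene, as did 237 in the amino acid starved gradient and 210 in the log phase gradient. Under equal totals these counts were 208, 195 and 214.

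The signal was spread differently over the fractions. In serum starved cells fractions 8 to 12 held 30.4% of a median member, and fractions 18 to 22 held 31.6%, where the median of all tested genes was 22.5% and 39.1%. In amino acid starved cells the members' medians were 29.0% and 23.0%, against 23.1% and 27.2% for all tested genes. In log phase cells the lower range held 8.74% and the upper range 42.0%, against 7.17% and 48.5%. Fractions 13 to 17 held 48.5% of it in log phase, more than the 42.6% of the median gene.

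**Figure D1:**
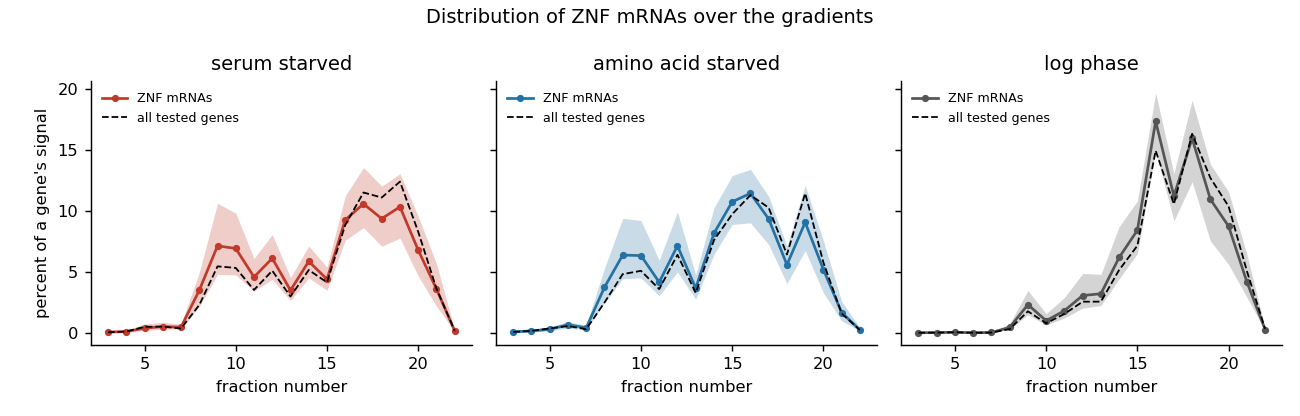
Percent of a gene's signal in each fraction of the serum starved, amino acid starved and log phase gradients, as the median of the 308 tested ZNF mRNAs (points and line, with the band from the lower to the upper quartile) and the median of all 10889 tested genes (dashed). The ZNF line runs above the dashed line in fractions 8 to 12 and below it in fractions 18 and 19 of all 3 gradients.

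A measure that does not depend on the authors' scale is the members' summed signal set against all signal in the same fraction, in parts per 1000000 (ppm). In each of fractions 3 to 13, a range set after the values were seen, this was lower in both starved gradients than in log phase. In fraction 9 it was 1348 ppm in serum starved cells, 1061 in amino acid starved cells and 2310 in log phase cells, and in fraction 10 it was 1766, 1089 and 2931. In fractions 20 to 22 the order was turned: fraction 21 held 4485 ppm in serum starved cells and 3680 in amino acid starved cells, against 3387 in log phase cells. ZNF mRNAs thus took a smaller share of the RNA in the low fractions of starved cells, and a larger share in the highest 3, than they did in growing cells. The highest value of all was 5351 ppm, in log phase fraction 7, a fraction with 0.0174% of that gradient's signal.

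**Figure D2:**
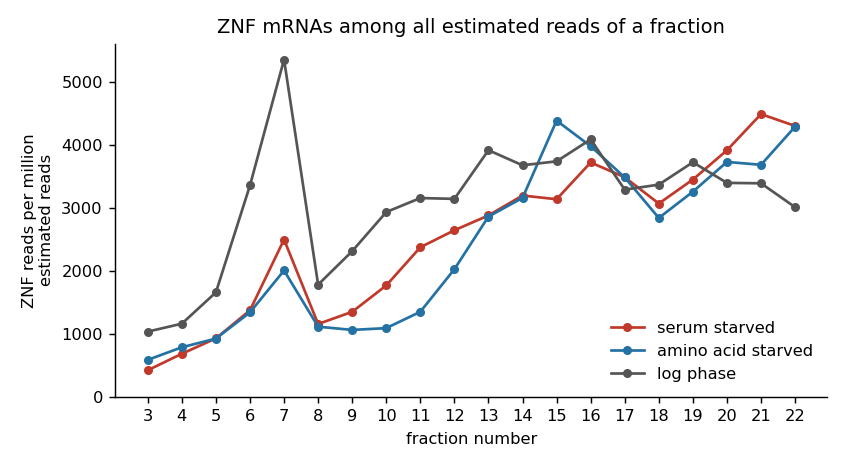
Summed ZNF signal in parts per 1000000 of all signal in the same fraction (vertical axis, from 0) against fraction number for the serum starved, amino acid starved and log phase gradients. Both starved lines lie below the log phase line in fractions 3 to 13 and above it in fractions 20 to 22.

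Among members the log phase positions ran between 13.6 and 18.6. The lowest were ZNF544 (13.6), ZNF749 (13.9), ZNF511 (13.9), ZNF655 (14.1) and ZNF254 (14.2). ZNF544, for example, held 42.8% of its log phase signal in fractions 8 to 12, its counting error was 0.07 fractions, and it stayed low in both starvations, at 11.7 in each. The highest were ZNF207 (18.6), ZNF622 (18.2), ZNF316 (18.2), ZNF143 (18.2) and ZNF296 (18.1). ZNF207 encodes a microtubule-binding protein of the mitotic spindle, ZNF622 is the human counterpart of a yeast factor for maturation of the large ribosomal subunit, and ZNF143 is a promoter-binding activator. Fractions 18 to 22 held 58.7% of the ZNF207 signal in serum starved cells and 47.1% in amino acid starved cells, against 77.4% in log phase cells.

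ZNF207 also had the highest log phase signal of the members, 4932, followed by ZNF706 (2034), ZNF593 (1916), ZNF768 (1781) and ZNF703 (1627). How these values relate to transcript length is not established, so they do not rank molecules. The median member had a signal of 102 and the lowest 10.5. The 69 tested members with a log phase signal under 50 lay 0.60 fractions below the median gene in log phase, the 153 with 50 to 200 lay 0.28 below it and the 86 with 200 or more lay 0.21 below it. The position thus varied with signal inside the family. The classes and the position come from the same log phase values and share their scale per fraction. The log phase relation may therefore be partly built in. In the same order the classes lay at -1.14, -0.74 and -0.48 without serum, and at -0.83, -0.57 and -0.33 without amino acids. Under equal totals they lay at -1.62, -0.97 and -0.46 in log phase and at -1.27, -0.68 and -0.55 without serum. Without amino acids they were then at -0.90, -0.46 and -0.46. Why the position varied with signal was not tested.

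Serum starvation was compared with log phase to see which ZNF mRNAs changed place beyond the general movement. Without centring, 307 of the 308 members lay at a lower position in serum starved than in log phase cells, by a median of 1.60 fractions, where the median gene moved by 1.35 and 98.1% of all tested genes lay lower. After centring, 44 members met the size rule lower and 5 higher, and 259 did not meet it. Of all tested genes 9.86% met it lower and 5.7% higher, while the members' shares were 14.3% and 1.62%. Under equal totals the balance was reversed, with 20 members lower and 53 higher against 13.1% and 12.1% of all tested genes. The median shift was -0.25 on the authors' scale (-0.19 in odd and -0.30 in even fractions) and 0.27 under equal totals. The family as a whole therefore had no direction that held in both readings, and the calls for single members below are given in both.

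Amino acid starvation was set against the same log phase gradient. On the authors' scale 36 members met the size rule lower and 11 higher (11.7% and 3.57% of members), where 9.57% and 6.84% of all tested genes did. Under equal totals 22 were lower and 69 higher, beside 16% and 13% of all tested genes. The median shift was -0.18 on the authors' scale and 0.33 under equal totals. All 308 members lay at a lower uncentred position than in log phase, by a median of 1.98 fractions, beside 1.80 for the median gene, and 99.2% of all tested genes did so. Because both starvations were set against 1 log phase gradient, their lists are not independent. On the authors' scale 25 members were lower in both and ZNF670 alone was higher in both, beside 6.62% and 3.82% of all tested genes. Under equal totals 14 were lower and 37 higher in both, beside 10.6% and 7.94%. In either scaling no member met the rule in opposite directions.

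**Figure D3:**
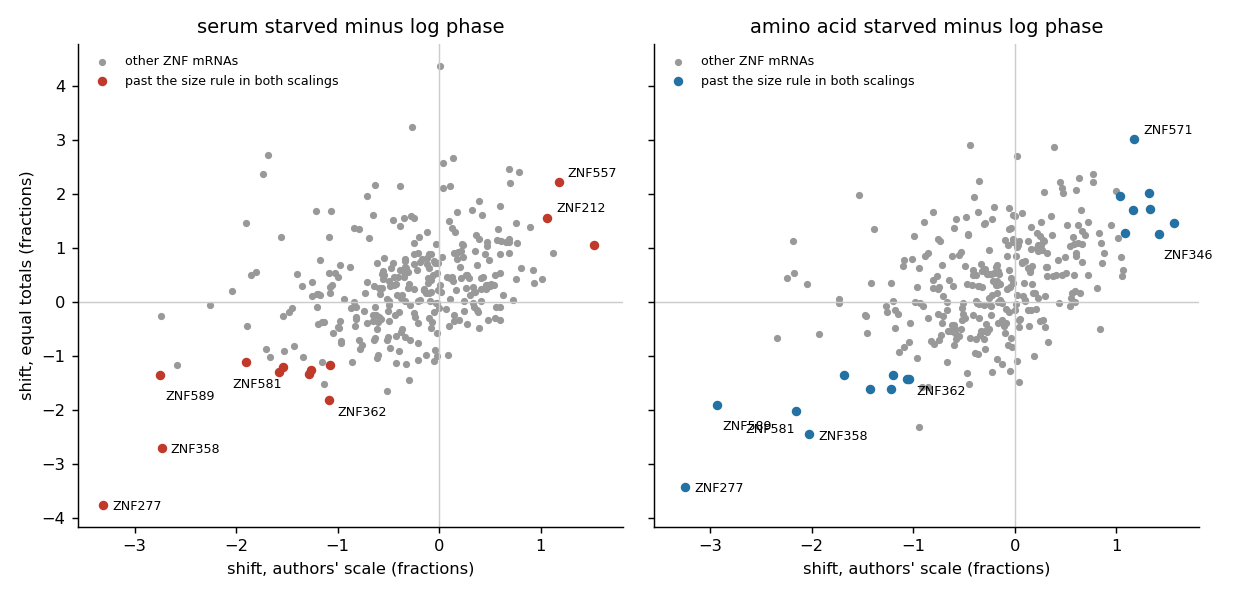
Shift of each of the 308 tested ZNF mRNAs on the authors' scale (horizontal) and with every fraction given the same total (vertical), in fractions, for serum starved minus log phase and amino acid starved minus log phase. Coloured points met the size rule in the same direction in both scalings: 10 lower and 3 higher without serum, 10 lower and 8 higher without amino acids, some of them named.

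Some single members kept their direction in both readings, and these were picked out after their values were seen. In serum starved cells 10 members were lower under both scalings and 3 were higher (ZNF212, ZNF557 and ZNF670), beside 4.72% and 2.07% of all 10889 tested genes. In amino acid starved cells 10 were lower and 8 higher (ZNF184, ZNF223, ZNF230, ZNF346, ZNF461, ZNF568, ZNF571 and ZNF670), beside 5.37% and 3.21%. Each of these counts is a smaller share of the 308 tested members than the share of all tested genes given beside it. ZNF138, ZNF277, ZNF358, ZNF362, ZNF550, ZNF581 and ZNF589 were lower in both starvations and under both scalings. Under spike-in scaling these 7 met the rule lower again without serum, and 6 of them did without amino acids, where ZNF138 was at -0.83. How many of all tested genes did either was not counted. These 7 therefore describe single genes, without a background for the family.

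ZNF277 moved farthest. It encodes a zinc finger protein reported to bind the ribosomal protein uS5. Its signal over the fractions ran from 0.49 through a median of 164 to 611 in serum starved cells, from 0.51 through 165 to 657 in amino acid starved cells, and from 0.08 through 116 to 756 in log phase cells. The peak lay in fraction 10 of both starved gradients and in fraction 20 of the log phase gradient. Fractions 8 to 12 held 54.0% of its signal without serum and 57.1% without amino acids, against 7.01% in log phase. Its position was 12.8 and 12.4 in the starved cells and 17.5 in log phase cells, a shift of -3.31 without serum (counting error 0.11, odd -3.75, even -2.91) and -3.25 without amino acids (0.09, -3.81, -2.72). Equal totals gave -3.75 and -3.42. Weights of log2(signal + 1) gave -1.04 and -0.98, of which the second missed the rule. Leaving out any 1 fraction kept the shifts between -3.53 and -2.99 without serum and between -3.49 and -2.90 without amino acids.

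ZNF589, a KRAB zinc finger protein first described in blood stem cells, was next, with a peak in fraction 9 of both starved gradients. Its signal ran from 1.00 through a median of 112 to 602 in serum starved cells, from 1.16 through 103 to 520 in amino acid starved cells and from 0.11 through 120 to 836 in log phase cells. Fraction 9 alone held 25.6% of it without serum and 23.2% without amino acids, against 5.64% in log phase. The shifts were -2.75 and -2.93, and -1.34 and -1.90 under equal totals. With positions weighted by log2(signal + 1) they were -0.11 and -0.20, which did not meet the rule.

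ZNF358 and ZNF581, both on chromosome 19, were among those of these 7 with the higher signal. ZNF358 ran from 1.87 through a median of 432 to 1599 in serum starved cells, from 2.04 through 411 to 1346 in amino acid starved cells and from 0.74 through 680 to 3650 in log phase cells. Its shifts were -2.73 and -2.03 (-2.70 and -2.45 under equal totals), with a counting error of 0.06 for each. Weights of log2(signal + 1) gave -0.52 and -0.48, which did not meet the rule. ZNF581 had shifts of -1.54 and -2.16 (-1.20 and -2.02). On the authors' scale its peak lay in fraction 9 of both starved gradients and in fraction 18 of log phase. ZNF138, ZNF362 and ZNF550 moved by less, between -1.42 and -1.06 on the authors' scale.

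**Figure D4:**
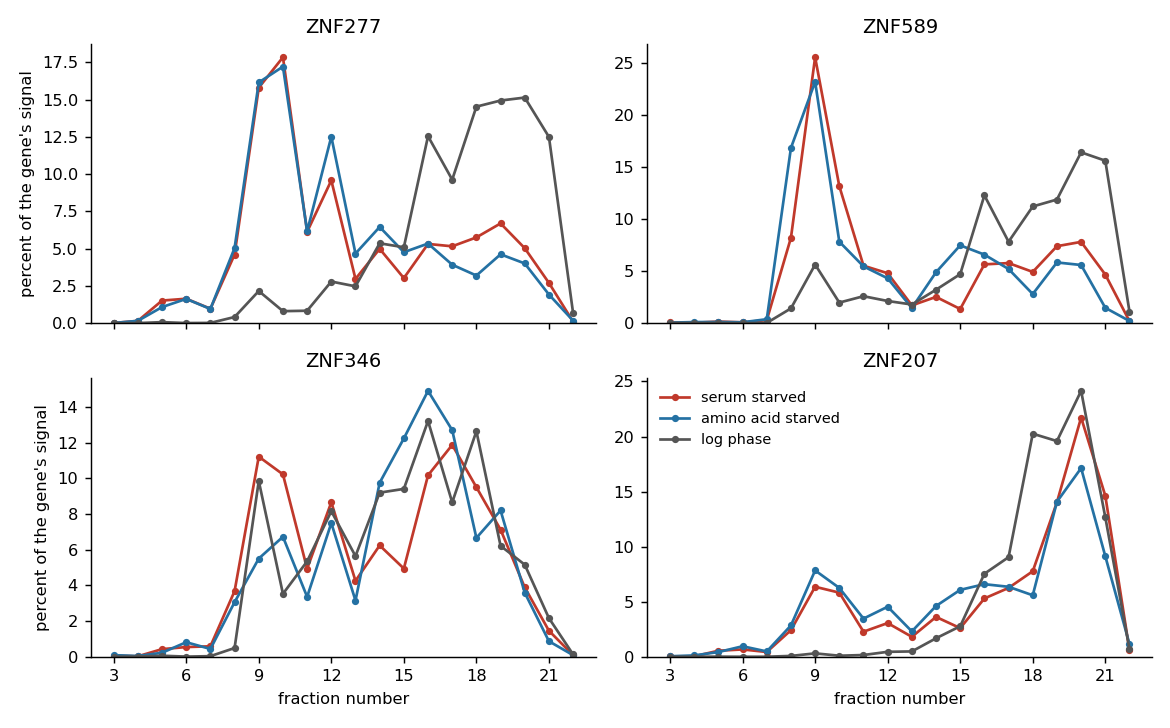
Percent of a gene's signal in each fraction of the serum starved, amino acid starved and log phase gradients for ZNF277, ZNF589, ZNF346 and ZNF207. The signal is on the authors' scale. ZNF277 and ZNF589 peak in fractions 9 and 10 of both starved gradients and in fraction 20 of log phase, ZNF346 has a broad profile in all 3, and ZNF207 keeps its peak in fraction 20.

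mRNAs of ribosomal proteins and elongation factors begin with a C followed by a run of pyrimidines (the 5' terminal oligopyrimidine or TOP tract), through which mTOR signalling controls their translation. The start sequences of the 7 members above were therefore read from RefSeq (GRCh38.p14), together with other members for contrast and EEF1A1, an elongation factor mRNA that is a standard TOP example. Each line gives 10 bases before and 20 from the annotated start, 5' to 3' on the gene's strand. Capitals mark a C at the start followed by at least 4 bases that are each C or T.
ZNF277: ctgcggccctCCCTTTTCTTTTCTgccggg
ZNF358: ctcggccggcCCCTCTCgctccccgggagc
ZNF581: ttcggcttctCTCTTTCggccggcgccgcc
ZNF138: cggggtctttgtctcgctgcagcgggtgct
ZNF362: tgcagaacccagaagtgaacagcaggcgac
ZNF550: acacaggggcgggacttccggcctcgctgg
ZNF589: ggcccgcggtgcgcattctaatccgtttca
ZNF496: gggctccggcCTTTCCTTTCCTCggcgtcc
ZNF282: ggaaaacgttCTTCTTCTCCCTggccgacc
ZNF346: cgcgatacctaggcgcctgagaggctctct
ZNF670: aggggactgtactctcaagcgcgccgcgaa
EEF1A1: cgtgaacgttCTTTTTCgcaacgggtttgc
The ZNF277 window is chr7:112206685-112206714 and the ZNF358 window chr19:7516093-7516122, both on the plus strand.

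At their listed starts ZNF277, ZNF358 and ZNF581 thus open with such a tract, of 14, 7 and 7 bases, and the other 4 of the 7 do not. The ZNF358 start read here, the only one listed for it, lies inside its gene entry (chr19:7513880-7521025) and not at its edge. Of the 279 members with a listed start, 14 had a tract at 1 of their starts (5.02%), beside 7.76% of 9026 tested genes and 5.14% of the 27305 genes in the RefSeq start table. Of 66 ribosomal protein genes 47 had one. The class was chosen after the shifts of ZNF277 had been seen. A wider search around the start was tried first and is not used.

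Of the 12 tested members with a tract, 5 met the size rule lower without serum on the authors' scale (ZNF276, ZNF277, ZNF358, ZNF581 and ZNF891) and none higher, with shifts between -3.31 and 0.13. Without amino acids 4 were lower and none higher. Of the 700 tested genes with a tract 29.6% and 29.4% were lower. Under equal totals 3 of the 12 were lower without serum, and without amino acids 4 were lower and 1 higher, beside 34.3% and 37.9% of the 700 lower. The median shift of the 12 was then 0.27 and 0.07. Of the 262 tested members without a tract, 35 and 30 were lower on the authors' scale (13.4% and 11.5%), and 16 and 17 under equal totals (6.11% and 6.49%). Of the 8326 tested genes without a tract 8.10% and 7.98% were lower on the authors' scale, and 11.4% and 14.4% under equal totals. ZNF496 has a tract of 13 bases and shifts of -0.02 and 0.20. ZNF282 has one of 12 bases and shifts of -0.02 and -0.45, although without amino acids it was at -1.52 under equal totals. None of the 8 members with a listed start among the 10 that were higher in both readings had a tract. Only 5.02% of all members with a listed start had one, so finding none among 8 gives no contrast. A match describes the annotated start only, and the start used in these cells was not measured.

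Several members with a large shift lost the call in at least 1 starvation under equal totals. ZNF256 was at -2.74 without serum and -2.18 without amino acids, but at -0.26 and 1.12 under equal totals. ZNF570 was at -2.04 and -2.24, but at 0.20 and 0.45. ZNF605 was at -1.68 and -2.18, but at 2.72 and 0.54. ZNF658, with 274 and 218 estimated reads in the starved gradients and 307 in log phase, was at -2.58 and -2.34, and at -1.16 and -0.66 under equal totals, which no longer met the rule. ZNF281, a repressor linked to stem cell identity, was at -1.90 and -1.93. Under equal totals it was at -1.12, which still met the rule, and at -0.59, which did not. Under spike-in scaling ZNF256 (-1.88 and -1.24), ZNF570 (-1.65 and -1.75), ZNF658 (-2.11 and -1.46) and ZNF281 (-1.27 and -1.10) met the rule in both starvations, and ZNF605 met it without amino acids only (-0.49 and -1.19). Single fractions weighed on some of these values. Without fraction 9 the ZNF658 shifts were -1.33 and -1.56, and without fraction 8 the ZNF256 shifts were -1.75 and -1.45. ZNF570 lost its amino acid call without fraction 9.

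ZNF670 was higher in both starvations, with shifts of 1.52 without serum and 1.33 without amino acids (1.06 and 1.72 under equal totals). It was the only tested member whose uncentred position was higher in serum starved cells than in log phase, 15.6 against 15.4. That difference of 0.18 lay within its counting error of 0.28, and without amino acids the uncentred difference was -0.47. It rests on 274 and 395 estimated reads in the starved gradients and 483 in log phase. ZNF346, which encodes a protein that binds double-stranded RNA, was higher without amino acids, at 1.57 (counting error 0.12, odd 2.35, even 0.89) and 1.46 under equal totals. Without serum it was at 0.50 and did not meet the rule. Its signal ran from 0.81 through a median of 65.8 to 282 in amino acid starved cells and from 0.36 through 373 to 937 in log phase cells. In fractions 8 to 12 it held 26.2% of its signal without amino acids and 27.4% in log phase.

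Other members were higher in 1 starvation. Without serum ZNF557 (1.18), ZNF609 (1.12), ZNF212 (1.07) and ZNF444 (1.01) met the rule, and equal totals gave 2.22, 0.91, 1.56 and 0.43. Without amino acids ZNF184 (1.42), ZNF461 (1.32), ZNF571 (1.18) and ZNF230 (1.17) met it, and equal totals gave 1.26, 2.01, 3.01 and 1.71. Leaving out 1 fraction ended several of these calls: ZNF444 in 7 of 20 settings (to 0.80), ZNF212 in 4 (0.89), ZNF557 in 3 (0.96) and ZNF609 in 3 (0.88) without serum, and ZNF230 in 3 (0.80), ZNF571 in 2 (0.85) and ZNF461 without fraction 9 (0.90) without amino acids. ZNF670 lost its amino acid call without fraction 20. ZNF571 had a serum shift of -0.46 whose odd and even fractions differed in sign, as the plot of named members shows.

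**Figure D5:**
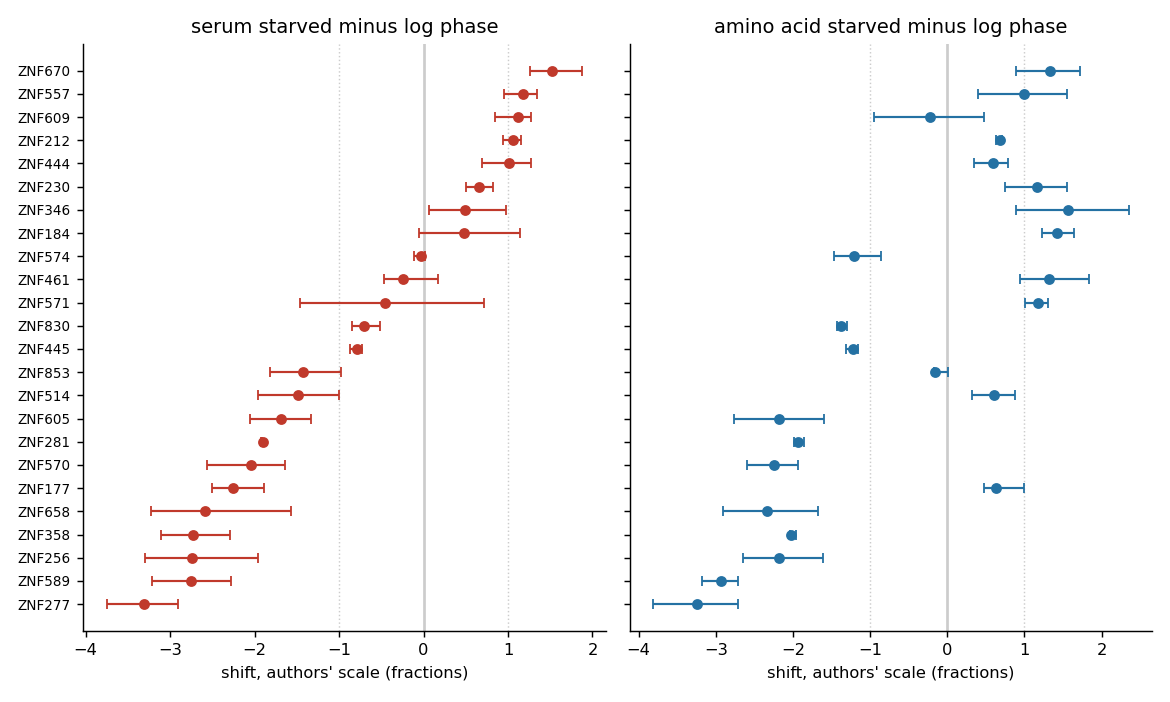
Shift on the authors' scale, in fractions, of the 24 named ZNF mRNAs that met the size rule in at least 1 starvation, for serum starved minus log phase and amino acid starved minus log phase. Points are the shifts over all fractions and bars join the values from odd and from even fractions. Dotted lines stand at 1 and -1, and the order follows the serum shift.

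The 2 starvations were also set against each other directly, without the log phase gradient. Of the members 8 were higher without amino acids than without serum and 5 were lower, beside 2.01% and 1.06% of all tested genes. Under equal totals 19 were higher and 12 lower, beside 2.49% and 2.94%. The median was 0.08 on the authors' scale and 0.12 under equal totals. ZNF177 differed most, at 2.91 (2.40 under equal totals). Fractions 8 to 12 held 27.3% of it without amino acids and 56.6% without serum. It rests on 254 estimated reads without amino acids and 282 without serum. ZNF514 (2.10), ZNF461 (1.58), ZNF853 (1.29), ZNF346 (1.09) and ZNF664 (1.07) were also higher without amino acids. ZNF778 was lower, at -1.62 and -1.53 under equal totals, and so were ZNF609 (-1.33), ZNF574 (-1.15), ZNF322 (-1.03) and ZNF616 (-1.02). Equal totals left ZNF177, ZNF461 and ZNF514 past the rule on the higher side, and ZNF574, ZNF609, ZNF616 and ZNF778 on the lower side, beside 0.854% and 0.661% of all tested genes past it in both scalings. On the authors' scale, leaving out 1 fraction ended the call of ZNF616 in 10 of 20 settings (to -0.69), ZNF322 in 7 (-0.86), ZNF574 in 4 (-0.86), ZNF664 in 3 (0.82), ZNF346 in 2 (0.85) and ZNF609 in 2 (-0.98). Those of ZNF177, ZNF461, ZNF514, ZNF778 and ZNF853 held in all 20.

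Besides ZNF277, ZNF281 and ZNF346, few members of the list with known roles met the rule on the authors' scale. The ribosome assembly factors ZNF593 and ZNF622 had shifts of 0.25 and 0.29 without serum and 0.16 and -0.18 without amino acids. ZNF207 was at -0.52 and -0.91, and under equal totals at -1.65 and -1.58, which met the rule. ZNF143 (0.20 and -0.72), ZNF384 (-0.76 and -0.96), ZNF410, the activator of CHD4 (0.15 and -0.31), ZNF638 (-0.18 and -0.02), ZNF687 (0.31 and -0.33), ZNF703 (-0.08 and -0.32), ZNF706 (-0.33 and -0.12), ZNF711 (-0.24 and 0.27) and ZNF746, a substrate of the ubiquitin ligase parkin (0.27 and 0.37), did not meet the rule on the authors' scale. Equal totals put ZNF706 lower in both starvations (-1.15 and -1.16). Without amino acids they put ZNF384 lower (-1.04) and ZNF638 and ZNF711 higher (1.61 and 1.15). ZNF217 (-0.59 and -0.71), ZNF326 (0.33 and 0.32) and ZNF451 (-0.73 and 0.16) met the rule in neither scaling. ZNF445, a KRAB protein that guards imprinted loci, was lower without amino acids (-1.22), as was ZNF830 (-1.38). Under equal totals those amino acid shifts were 0.35 and 1.35, and both genes were higher without serum (1.36 and 1.96). ZNF445 lost its amino acid call without fraction 19 and ZNF830 without fraction 9.

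Few members met the size rule for levels summed over the gradient, which was a log2 ratio of 1 or more, with 0.5 or more in odd and in even fractions. A level was the summed signal in ppm of the gradient total, and 166 members reached a level of 5 in at least 1 of the gradients set against each other. The median log2 ratio was -0.07 for serum starved against log phase cells and -0.11 for amino acid starved against log phase cells, each after centring on all genes. The log phase level helped to choose the members, so these ratios are a description. ZNF277 alone was higher, with 1.11 without serum and 1.25 without amino acids. Leaving out single fractions put its serum ratio between 0.92 and 1.24, and the call was lost without fraction 9 or 10. Spike-in scaling gave 0.81 and 0.91, both under the rule. ZNF207 (-1.28) and ZNF668 (-1.05) were lower without amino acids, and no member was lower without serum. ZNF668 missed the rule under spike-in scaling (-0.98) and without fraction 15 or 16. Of all genes 3.06% were higher and 0.903% lower without serum, and 4.96% and 2.84% without amino acids. Between the starvations no member of 116 met the rule, beside 0.187% of all genes higher and 0.0401% lower. In a bulk culture, fewer cells with an mRNA and less of it per cell cannot be told apart.

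Chromosome 19 carries 153 of the 317 members (48.3%), while it held 7.35% of the genes in the table. The 147 tested members on chromosome 19 had a median log phase position of 16.6, and so had the 161 on other chromosomes. Under equal totals these were 13.1 and 13.6, which differ from the median gene by -1.14 and -0.61. Their median serum shifts were -0.25 and -0.25, and their amino acid shifts -0.18 and -0.17. Under equal totals the medians were 0.39 and 0.23 without serum and 0.52 and 0.27 without amino acids. Of the chromosome 19 members 21 were lower without serum (14.3%) and 21 without amino acids (14.3%), and of the others 23 (14.3%) and 15 (9.32%). Of all tested genes 9.86% and 9.57% were lower, and of the 647 tested chromosome 19 genes that are not members 11.7% and 12.4%. Under equal totals 28.6% of the chromosome 19 members and 16.8% of the others were higher without amino acids. Of all tested genes 13.0% were, and of the 647 chromosome 19 genes that are not members 8.81%.

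Blocks of chromosome 19 members, formed after the values were seen by parting neighbours whose starts lie over 1000000 bases apart, are given as a description. The largest (chr19:55476617-58489533) holds 42 members, among them ZNF256, ZNF544, ZNF550 and ZNF581. Of its 41 tested members 8 were lower without serum and 7 without amino acids, with medians of -0.43 and -0.32, and of 0.14 and 0.17 under equal totals. The block at chr19:36182060-37719761 holds 19 members, among them ZNF461, ZNF568 and ZNF571, which are 3 of the 11 that were higher without amino acids. Another 3 of its members were lower without amino acids, and 4 were lower without serum. Its medians were -0.34 without serum and -0.04 without amino acids, and 0.64 and 0.86 under equal totals. The 6 members at chr19:21020657-21767579 (ZNF100, ZNF430, ZNF431, ZNF493, ZNF708 and ZNF714) had medians of -0.62 without serum and -1.04 without amino acids, and of 1.91 and 0.89 under equal totals.

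Other C2H2 families were set beside the members. The 136 tested genes with ZNF symbols of other forms or with ZFP, ZSCAN, ZKSCAN, ZBTB, KLF or SP symbols had a median log phase position 0.31 below the median gene, where the members' was 0.38 below. Of these 136, 31 were lower (22.8%) and 2 higher without serum on the authors' scale, and 22 lower (16.2%) and 2 higher without amino acids. Of all tested genes 9.86% were lower and 5.7% higher without serum, and 9.57% and 6.84% without amino acids. Under equal totals 8 of the 136 were lower and 20 higher without serum, beside 13.1% and 12.1% of all tested genes. Without amino acids 14 were then lower and 20 higher, beside 16% and 13%. The families among the 136 went different ways on the authors' scale: 17 of 34 ZBTB genes were lower without serum, with a median of -1.02. Of the KLF and SP genes 0 of 11 and 0 of 4 were. Under equal totals the ZBTB median was -0.11, with 3 genes lower and 6 higher, and 1 KLF and 1 SP gene were lower. The medians of all 136 were -0.32 and -0.23, and 0.09 and 0.24 under equal totals. Whether the members differ from them was not tested.

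The partners of KRAB proteins in repression lay elsewhere. The 17 genes of that list, all tested, had a median log phase position of 17.5. TRIM28, the corepressor that KRAB domains recruit, was lower in both starvations, at -1.17 without serum and -1.81 without amino acids (-1.95 and -2.10 under equal totals). SETDB1, the methyltransferase it brings, was at -0.55 and -0.86, which did not meet the rule, and at -0.84 and -1.01 under equal totals, of which the second did. CHD4, a remodeller of the NuRD complex, was higher without serum (1.02, and 1.57 under equal totals). Without amino acids it was at 0.26, and at 1.09 under equal totals, which met the rule. CBX5, which encodes the heterochromatin protein HP1 alpha, was higher without amino acids (1.06, and 0.59 under equal totals). The other 13 were not past the rule in either starvation on the authors' scale. Under equal totals HDAC1 (-1.01 and -1.17) and HDAC2 (-1.13 and -1.03) were lower and ATRX (2.73 and 2.66) higher in both, and CHD3 was lower without amino acids (-1.81).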

How the data were processed

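Polyadenylated RNA of 60 gradient fractions was analysed, and the 3 lysate samples were not analysed here. Reads were processed with kallisto 0.44.0 and sleuth 0.29.0 on hg38, per the submitters' processing notes. The deposited table holds a signal for every gene in every fraction. Its title says TPM, yet part of the values of a column share 1 step across genes, as estimated reads times a scale the authors set per fraction would. Other genes may carry a further factor of their own. ZNF589, for example, had 6.83 estimated reads in serum starved fractions 4 and 6 and in amino acid starved fraction 6. Of the values above 0 in a column, 24.0% to 31.8% were whole multiples within 0.0002, so no count test was run. The step was taken from a search that asked for odd and even multiples about equally often, after 2 simpler searches had given smaller steps. Signal divided by step gave the estimated reads and a Poisson counting error, which covers counting only.

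Positions, shifts, levels (log2 ratio with a pseudocount of 1, centred on all genes with a level of 5 or more) and size rules were computed with Python 3.11.15, numpy 2.4.6 and pandas 2.3.3, and checked on simulated data. Spike-in rows were left out. Sequences and coordinates are RefSeq GRCh38.p14, which named 11041 of 11074 genes. Named members were the 5 of highest log phase signal, the 5 lowest and 5 highest log phase positions, up to 6 shifts and up to 3 level ratios past the size rule in each direction of each comparison, and a list of genes with known roles. The members and lists were chosen with earlier results of these data known. Classes by protein length, finger number and KRAB box were planned and not run, since no protein sequences were used here. The alternatives were equal totals, spike-in scaling, log2 weights, other filters, no centring, odd or even fractions, and leaving out each fraction.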

Additional observations from a re-analysis of the deposited data

How the results depend on the processing

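No paired analysis was possible because each condition had 1 gradient. Differences between gradients therefore cannot be told apart from differences between runs, and low-signal members rest on few reads. The KRAB pattern alternative and the protein classes were not run, as no protein sequences were used here. Settings that single out members in both scalings, start tracts, chromosome blocks, signal classes and counting error were chosen after seeing the data. The cause of the changes below was not tested.

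With equal totals the log phase difference was -1.01. The serum median was 0.27, with 20 lower and 53 higher, the amino acid median 0.33, with 22 lower and 69 higher, and between the starvations 12 were lower and 19 higher. Chromosome 19 members minus the others came to 0.17 for serum and 0.25 for amino acids, and the level medians were -0.14 and -0.22. The signs of ZNF570 (0.20 serum, 0.45 amino acids), ZNF605 (2.72 and 0.54) and, for amino acids, ZNF256 (1.12), ZNF574 (0.018), ZNF445 (0.35) and ZNF830 (1.35) were reversed.

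Spike-in scaling gave a log phase difference of -0.55, a serum median of -0.037 with 24 lower and 9 higher, and the amino acid shift of the ZNF members had a median of 0.00497 with 23 lower and 26 higher. It left 0 serum and 1 amino acid level calls. With log2(signal + 1) the log phase difference was 0.067 and the medians were -0.011 for serum (1 lower, 1 higher), -0.041 for amino acids (1 lower, 0 higher) and -0.035 between the starvations (1 lower, 1 higher). Odd fractions alone gave 16 higher for serum, 21 higher for amino acids, and 13 lower and 26 higher between the starvations. Even fractions alone gave 11 lower and 24 higher in that last comparison.

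Without centring the medians were -1.60 for serum (238 lower, 0 higher), -1.98 for amino acids (278 lower, 0 higher) and -0.39 between the starvations (26 lower, 3 higher), and the level medians -0.50 with 7 calls and -0.69 with 40. ZNF557 (-0.17), ZNF609 (-0.23), ZNF212 (-0.28) and ZNF444 (-0.34) then turned sign for serum, and ZNF670 (-0.47), ZNF346 (-0.23), ZNF184 (-0.38), ZNF461 (-0.48), ZNF571 (-0.62) and ZNF230 (-0.63) for amino acids. A pseudocount of 10 gave level medians of 0.036 with 0 calls and 0.028 with 1 call, and no level minimum gave 2 and 5 calls.

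Leaving out 1 fraction at a time moved the serum median between -0.31 and -0.17 and the amino acid median between -0.26 and -0.071. Members higher numbered 1 to 7 for serum, 5 to 14 for amino acids and 5 to 14 between the starvations, where 2 to 7 were lower. The amino acid level median lay between -0.16 and -0.080, and serum level calls numbered 0 to 1.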
